A study of Homo sapiens with 16 samples.

Results

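Keratins are the intermediate filament proteins of epithelial cells, and this account describes their genes in BxPC3 and PANC-1, 2 human lines of pancreatic ductal adenocarcinoma, with and without gemcitabine. The members were all protein-coding genes whose symbol is KRT followed by a number, with or without a letter A to C, which gave 55 genes of the 58735 in the tables. RNA sequencing after poly-A selection covered 4 groups of 4 libraries: BxPC3 control, BxPC3 with gemcitabine, PANC-1 control and PANC-1 with gemcitabine. Gemcitabine is a deoxycytidine analog that stops DNA synthesis and is a standard drug for this cancer. The dose, the time of exposure and what the controls received were not given in the sources used here. Both are established lines without the stroma of a tumor. The labels do not say whether each library had its own culture. The p-values therefore reflect spread among libraries only, and that spread may be technical.

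A keratin filament is built from pairs of 1 acidic type I and 1 basic type II chain. Simple epithelia, such as the pancreatic duct, make mainly KRT8 and KRT18 with KRT7 and KRT19. The basal layer of stratified epithelium makes KRT5, KRT14 and KRT15, and suprabasal cells of the mouth and esophagus switch to KRT4 and KRT13, those of the skin to KRT1 and KRT10. KRT6A, KRT6B, KRT6C, KRT16 and KRT17 are called wound-induced here because injured skin makes them, and squamous tumors often carry them. Squamous or basal-like keratins in pancreatic cancer are used to mark a subtype distinct from the classical glandular one.

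Some keratin genes are near copies, which bears on how far their values can be told apart. The coding sequences of KRT6A and KRT6B were 97.5% identical over aligned bases, those of KRT6A and KRT6C 97.9% and those of KRT6B and KRT6C 98.5%. The same 90 coding bases of the 3 genes are shown because KRT6A, described below, changed by over 2 on the log2(FPKM + 1) scale. They run 5′ to 3′ from base 658 to base 747 of each coding sequence (GENCODE 29 transcripts on GRCh38), and capitals mark bases that differ from KRT6A.
KRT6A: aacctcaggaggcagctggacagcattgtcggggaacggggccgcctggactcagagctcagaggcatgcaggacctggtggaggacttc
KRT6B: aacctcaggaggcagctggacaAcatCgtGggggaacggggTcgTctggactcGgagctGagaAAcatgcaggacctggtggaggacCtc
KRT6C: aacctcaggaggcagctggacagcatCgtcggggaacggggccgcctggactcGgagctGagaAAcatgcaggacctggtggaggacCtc
KRT6B differed from KRT6A at 10 of these bases and KRT6C at 6. Of all 75-base windows in the exons of KRT6A, 26.2% also occurred in another gene, against 34.9% for KRT6B and 42.9% for KRT6C.

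The type I genes KRT14, KRT16 and KRT17, which lie next to each other on chromosome 17, were less alike. KRT14 and KRT16 were 88.6% identical, KRT14 and KRT17 84.7%, and KRT16 and KRT17 79.3%. A matching stretch of 90 coding bases is shown because these 3 neighbours were all higher with gemcitabine in BxPC3, with capitals for bases that differ from KRT17.
KRT17: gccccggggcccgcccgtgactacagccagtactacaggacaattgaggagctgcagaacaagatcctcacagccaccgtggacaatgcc
KRT16: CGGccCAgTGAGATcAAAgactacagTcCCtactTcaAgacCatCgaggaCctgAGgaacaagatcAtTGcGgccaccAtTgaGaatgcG
KRT14: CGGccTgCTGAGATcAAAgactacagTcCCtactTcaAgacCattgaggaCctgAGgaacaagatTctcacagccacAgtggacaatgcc
The stretch starts at coding base 370 of KRT17, 469 of KRT16 and 463 of KRT14. KRT16 differed at 32 of the 90 bases and KRT14 at 25. Shared 75-base windows made up 4.57% of KRT17, 9.68% of KRT16 and 10.01% of KRT14, and none of KRT19, KRT15, KRT4, KRT10 or KRT80.

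The libraries held 22152034 to 37777222 reads in listed genes. Values are FPKM, reads scaled by gene length and library size, as the authors deposited them. A gene was tested where at least 4 of the libraries fitted reached 1 FPKM. Changes are differences of mean log2(FPKM + 1) with their standard error, tested with limma and adjusted over all genes, at a threshold of 0.05; they understate the change of low genes. Folds are ratios of mean FPKM. Gemcitabine libraries differed from controls at most genes in BxPC3. Of 12215 genes tested there, 37.3% were called higher and 36.1% lower, and the groups did not overlap at 67.5%. In PANC-1, 20.7% of 12508 genes were called higher and 24.0% lower, with no overlap at 45.8%. PANC-1 gemcitabine replicate 1 stood apart: the 3126 tested genes of highest GC content lay a median 0.45 above the other gemcitabine libraries (log2), and the 3126 of lowest GC content deviated by -0.42. Without it, 32.8% of genes were called higher and 37.0% lower. The keratins tested in PANC-1 have 52.0% to 62.3% GC, and their changes are also given without this library.

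The epithelial label held in BxPC3, where the epithelial adhesion genes EPCAM and CDH1 were at 53.1 ± 4.58 and 82.5 ± 3.96 FPKM in controls (SD, n = 4). In PANC-1 controls, EPCAM was at 17.5 ± 1.20 and CDH1, a defining adhesion gene, only at 0.921 ± 0.0656, while the mesenchymal filament gene VIM was at 268 ± 13.5 FPKM, against 0.500 ± 0.0726 in BxPC3 controls. The 5 duct epithelium markers, which include EPCAM and CDH1, summed to 138 to 140 FPKM in BxPC3 controls and 168 to 174 with gemcitabine. In PANC-1 they summed to 105 to 112 and 99.8 to 105. Most of the sum in PANC-1 controls came from members other than EPCAM and CDH1. The 5 blood and endothelial markers summed to at most 1.25 FPKM in any library. The 5 fibroblast markers summed to 6.44 to 7.18 FPKM in BxPC3 controls and 3.84 to 4.21 with gemcitabine, and to 11.9 to 12.9 and 8.19 to 11.7 in PANC-1. The 6 acinar markers summed to 20.6 to 23.3 and 19.8 to 21.2 FPKM in BxPC3, and to 0.461 to 0.912 and 1.59 to 2.25 in PANC-1. Their part in the keratin results was not tested. In bulk RNA, fewer cells of a type and less RNA per cell cannot be told apart.

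The lines carried different sets of keratins before any drug. BxPC3 controls gave 1.68% ± 0.0585 of their reads to keratin genes (SD, n = 4), and PANC-1 controls 0.153% ± 0.00437. The 2 tables were normalized separately, so levels are set side by side and not tested between lines. In BxPC3 controls KRT19, the smallest type I keratin and a duct marker, stood highest at 1841 ± 152 FPKM. It was followed by the wound-induced KRT17 at 952 ± 63.1 and the basal KRT5 at 764 ± 4.63. After KRT7 (455 ± 28.0) came the suprabasal KRT13 at 367 ± 20.7, then KRT8 at 290 ± 20.9 and KRT18 at 247 ± 19.2, whose ranges overlapped, then KRT6A at 116 ± 1.72 and KRT4 at 75.5 ± 2.02. KRT23, KRT10, KRT15, KRT80 and KRT16 lay between 16.7 and 3.15 FPKM. By class, simple keratins made up 54.9% ± 0.987 of the summed keratin FPKM in BxPC3 controls, wound-induced ones 20.8% ± 0.0366, basal ones 15.03% ± 0.853 and suprabasal ones 9.0005% ± 0.137. BxPC3 carried simple, basal and squamous keratin RNA side by side.

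PANC-1 controls carried simple keratins nearly alone. KRT18, KRT8 and KRT19 were at 128 ± 4.19, 115 ± 3.16 and 93.4 ± 6.40 FPKM (SD, n = 4), with the ranges of neighbours apart. Next came KRT10 at 16.8 ± 1.40 and KRT80, a type II keratin of many epithelia, at 8.88 ± 0.729, and no other keratin reached a mean of 1 FPKM. The simple class made up 92.4% ± 0.559 of the keratin sum. KRT5 and KRT13 had no read in any PANC-1 control library, which allows up to 0.0297 and 0.0438 FPKM in a library at 3 reads (counting error only). KRT17, at 952 FPKM in BxPC3 controls, had 17 reads in all 4 PANC-1 controls together. KRT6A had 2 reads and KRT14 had 8. KRT7 was low but present, at 0.530 ± 0.157 FPKM.

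Order between genes depends on the length used. The deposited length is the union of all annotated exons, which for KRT8 is 3.66 times its main transcript, for KRT7 2.33 times and for KRT18 2.06 times, against 1.68 for KRT19. Per kilobase of main transcript, KRT8 led PANC-1 controls at 420 ± 11.5, ahead of KRT18 at 264 ± 8.63 and KRT19 at 157 ± 10.8, while KRT19 (3094 ± 256) and KRT17 (1964 ± 130) still led BxPC3 controls. KRT8 and KRT18 also overlap on opposite strands, with 19.7% of the windows of KRT18 in exons of KRT8. The use of strand in counting was not given in the sources used here, and reads of this overlap cannot be told apart.

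**Figure D1:**
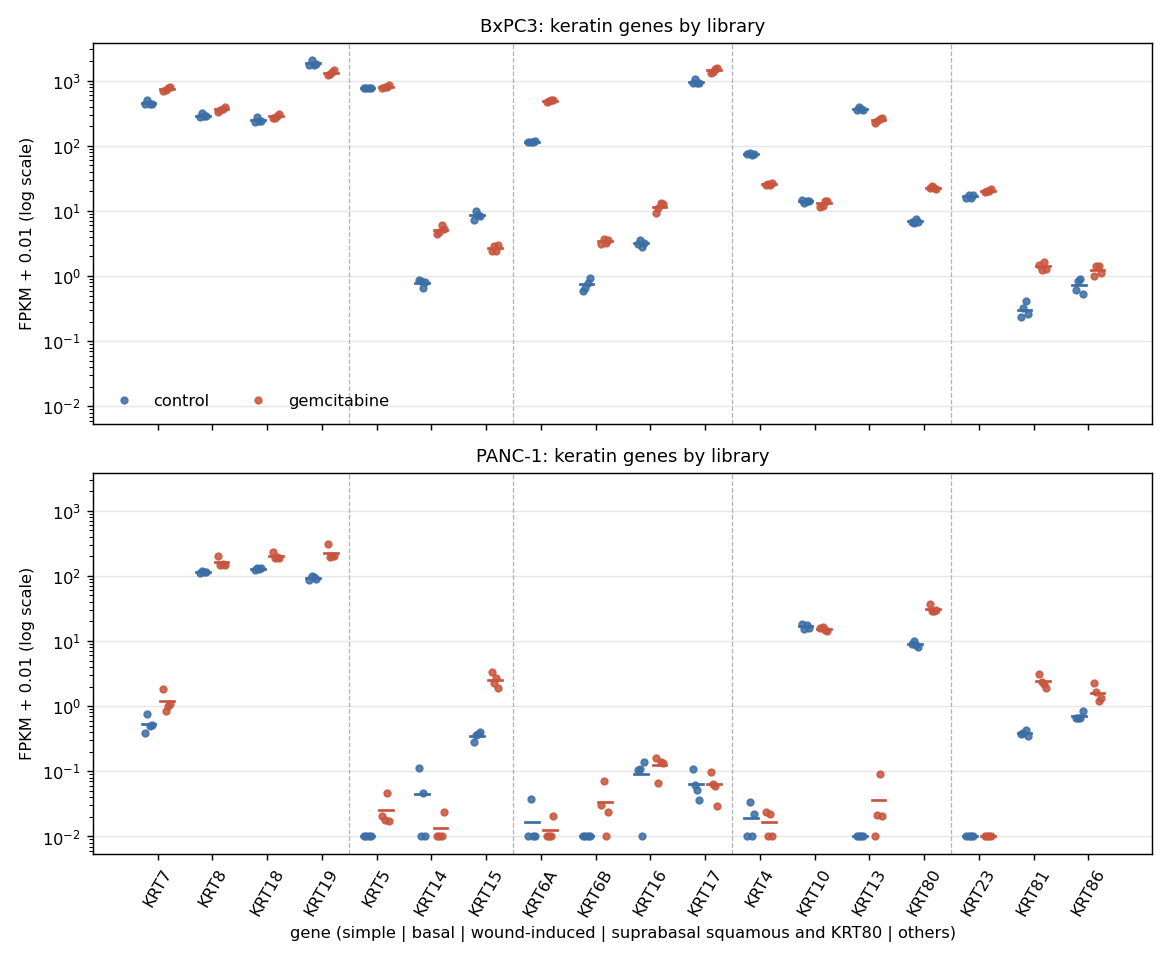
FPKM + 0.01 (log scale) of 18 keratin genes in each library, with BxPC3 above and PANC-1 below; blue points are controls, red points gemcitabine, and bars the mean of 4 libraries. In BxPC3 the basal, wound-induced and suprabasal genes spread from below 1 FPKM to a mean of 1431, while in PANC-1 most of them sit at or near 0 and KRT8, KRT18 and KRT19 stand near 100 FPKM.

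With gemcitabine, BxPC3 shifted within its keratin set. The wound-induced KRT6A, KRT16 and KRT17 rose with KRT7, KRT8, KRT18, KRT23 and KRT80, and KRT4, KRT13, KRT15 and KRT19 fell. Of 14 keratins at 1 FPKM or more in both groups, 8 were called higher and 4 lower, beside 37.3% and 36.1% of all genes, and 11 of the 14 did not overlap, beside 67.5%. Calls were common among all genes, so sizes are given beside the counts. A log2 change of at least 1 in either direction was reached by 5 of the 14 keratins, and by 8.44% of all genes tested. The median change of the 14 was 0.23, beside 0.00 over all genes. Another 3 keratins, KRT14, KRT6B and KRT81, passed the filter on low values only through the gemcitabine libraries, so they had to differ, and their values are given as a description.

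Among the wound-induced genes, KRT6A (ENSG00000205420, chromosome 12, 52487174 to 52493257, minus strand, GRCh38) had the largest change on the log2(FPKM + 1) scale. Its control libraries held 115, 114, 116 and 118 FPKM, and the gemcitabine libraries 462, 483, 511 and 507. All 4 treated libraries lay far above all controls. KRT6A rose 4.25-fold, by 2.08 ± 0.0443 (log2, SE; adjusted p = 2.76e-10). KRT6B went from 0.736 ± 0.152 to 3.41 ± 0.279 FPKM (SD, n = 4), a 4.64-fold ratio, and KRT6C, not tested, from 51 to 306 reads. Both ratios are larger than that of KRT6A, from far lower levels. KRT6A held 99.4% of the reads of the 3 genes in controls and 99.3% with gemcitabine. Since sequence is shared within the family, reads of KRT6A assigned to KRT6B and KRT6C could move with it, and this was not tested.

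KRT17 (ENSG00000128422, chromosome 17, 41619441 to 41624842, minus strand) was the second most abundant keratin in BxPC3 controls and the first with gemcitabine. It held 912, 1046, 925 and 924 FPKM in controls and 1320, 1360, 1485 and 1558 with gemcitabine, without overlap. It rose 1.503-fold, by 0.59 ± 0.0697 (adjusted p = 3.19e-05). KRT16, a type I partner of KRT6 chains, held 3.08, 3.57, 2.76 and 3.21 FPKM in controls and 9.38, 10.9, 13.4 and 12.5 with gemcitabine. It rose 3.66-fold, by 1.59 ± 0.0990 (adjusted p = 2.82e-07). Pseudogenes of KRT16 held 501 reads in controls, beside 1039 for KRT16 itself, and 648 beside 3784 with gemcitabine. These pseudogene reads rose less than those of the gene.

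The simple keratins divided in BxPC3. KRT19 (ENSG00000171345, chromosome 17, 41523617 to 41528308, minus strand) held 1746, 2068, 1764 and 1786 FPKM in controls and 1224, 1257, 1377 and 1451 with gemcitabine. Control replicate 2 was the highest, and the groups did not overlap. KRT19 fell by 0.47 ± 0.0761 on the log2 scale, to 0.721 of the control mean (adjusted p = 0.000282). KRT7, a type II keratin of duct cells, went the other way. It held 437, 496, 444 and 440 FPKM in controls and 691, 719, 761 and 794 with gemcitabine, a rise of 1.63-fold, by 0.70 ± 0.0613 (adjusted p = 3.27e-06). The antisense gene KRT7-AS, which overlaps 9.05% of the windows of KRT7, rose from 4.58 ± 0.506 to 12.4 ± 0.221 FPKM, so it stayed far below KRT7.

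KRT8 and KRT18, the pair found in nearly every simple epithelium, moved little. KRT8 held 274, 321, 281 and 284 FPKM in controls and 334, 348, 368 and 390 with gemcitabine. It rose 1.24-fold, by 0.31 ± 0.0657 (adjusted p = 0.00169), with no overlap between groups. KRT18 held 233, 275, 237 and 242 FPKM in controls and 263, 270, 283 and 311 with gemcitabine. Control replicate 2 lay above gemcitabine replicates 1 and 2. The call for KRT18 was weak, 1.14-fold and 0.19 ± 0.0691 (adjusted p = 0.0291). It was lost without control replicate 1, 3 or 4, and without gemcitabine replicate 3 or 4, with adjusted p from 0.0631 to 0.0810, and with no filter on low values (adjusted p = 0.0780). KRT20, the simple keratin of the gut, had 4 reads in controls and 13 with gemcitabine.

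The basal keratins did not move as a group. KRT5 (ENSG00000186081, chromosome 12, 52514575 to 52520687, minus strand) held 760, 761, 766 and 770 FPKM in controls and 759, 794, 788 and 856 with gemcitabine, so the lowest treated library lay below all controls and the other 3 above them. Its change of 0.06 ± 0.0479 did not pass (adjusted p = 0.259); among the alternatives run it passed in 1, with each library scaled to the same FPKM sum (0.15, adjusted p = 0.00370). KRT14, the classical type I partner of KRT5, was almost silent beside it. It held 0.846, 0.834, 0.646 and 0.798 FPKM in controls and 4.42, 4.73, 6.06 and 5.21 with gemcitabine, a 6.54-fold ratio that left it at a small part of the level of KRT5. KRT15, which marks basal and bulge stem cells in skin, held 7.15, 9.88, 8.53 and 8.49 FPKM in controls and 2.44, 2.90, 2.45 and 2.96 with gemcitabine. It fell by 1.36 ± 0.0864 on the log2 scale, to 0.316 of the control mean (adjusted p = 3.21e-07).

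The suprabasal pair of mouth and esophagus fell on both sides. KRT4, the type II chain, held 75.1, 78.2, 73.3 and 75.5 FPKM in controls and 24.6, 26.2, 25.3 and 27.0 with gemcitabine. It fell by 1.51 ± 0.0390 on the log2 scale (0.341 of the control mean, adjusted p = 7.86e-10). KRT13, the type I chain, held 355, 398, 362 and 354 FPKM in controls and 225, 242, 256 and 265 with gemcitabine. It fell by 0.57 ± 0.0621 (0.672 of the control mean, adjusted p = 1.64e-05). KRT10, the type I chain of the upper skin layers, held 14.8, 13.1, 14.0 and 14.1 FPKM in controls and 11.7, 12.1, 14.2 and 14.2 with gemcitabine; its change of -0.10 ± 0.0684 did not pass (adjusted p = 0.222).

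KRT80 showed a large change in this line as well. It held 6.80, 6.58, 7.59 and 6.83 FPKM in controls and 22.6, 23.8, 22.3 and 21.5 with gemcitabine. It rose 3.25-fold, by 1.57 ± 0.0481 (adjusted p = 2.27e-09). KRT23, a type I keratin, rose 1.21-fold from 16.7 ± 1.05 to 20.2 ± 0.893 FPKM (SD, n = 4), by 0.27 ± 0.0504 (adjusted p = 0.000831). The hair keratin KRT81 went from 0.296 ± 0.0779 to 1.40 ± 0.180 FPKM, or 76 to 357 reads. Its neighbour KRT86, on the opposite strand and with 32.6% of its windows shared, went from 226 to 394 reads and was not tested. The other 38 keratins, KRT86 and KRT6C included, were not tested in BxPC3; none had a mean above 1.24 FPKM and 7 had no read.

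In PANC-1, the simple keratins and KRT80 rose. Of 5 keratins at 1 FPKM or more in both groups, limma called 4 higher and 0 lower, beside 20.7% and 24.0% of all genes. The count of lower calls was also 0 at an unadjusted p under 0.05 (KRT10 had 0.118) and in limma-voom on recovered reads. The 4 that rose were KRT8, KRT18, KRT19 and KRT80, and their groups did not overlap, beside 45.8% of all genes. The median change of the 5 was 0.62, beside -0.02 over all genes. KRT15, KRT81 and KRT86 passed the filter only through gemcitabine libraries and are described by their values.

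KRT19 had the largest fold among the simple keratins of PANC-1. It held 86.1, 101, 96.4 and 90.6 FPKM in controls and 305, 197, 203 and 200 with gemcitabine, replicate 1 standing well above the other 3. It rose 2.43-fold, by 1.25 ± 0.139 (adjusted p = 0.000120). Without gemcitabine replicate 1 the treated mean was 200 ± 2.92 (SD, n = 3) and the rise 2.14-fold, by 1.09 ± 0.0482 (adjusted p = 1.43e-08). KRT18 held 122, 131, 128 and 131 FPKM in controls and 233, 185, 191 and 186 with gemcitabine. It rose 1.55-fold, by 0.62 ± 0.0799 (adjusted p = 0.000282), and by 0.54 ± 0.0324 without replicate 1. KRT8 held 111, 119, 116 and 114 FPKM in controls and 202, 149, 150 and 146 with gemcitabine. It rose 1.41-fold, by 0.48 ± 0.103 (adjusted p = 0.00507), and by 0.37 ± 0.0302 without replicate 1. Replicate 1 was the highest treated library for all 3 genes, and the other 3 treated libraries also lay above every control.

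KRT80 held 8.90, 9.87, 8.62 and 8.14 FPKM in PANC-1 controls and 37.1, 29, 29.2 and 29.5 with gemcitabine. It rose 3.51-fold, by 1.70 ± 0.0936 (adjusted p = 1.96e-06), and 3.29-fold without replicate 1. KRT10 held 18.4, 15.4, 17.6 and 16 FPKM in controls and 15.8, 16.2, 14.9 and 14.4 with gemcitabine, a change of -0.13 ± 0.0725 that did not pass (adjusted p = 0.195), nor did it without replicate 1 (-0.14 ± 0.0627, adjusted p = 0.0714). KRT10 overlaps TMEM99 on the opposite strand, whose mean went from 13.1 to 9.56 FPKM.

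Some keratins that were low in PANC-1 controls were higher with gemcitabine. KRT15 held 0.272, 0.351, 0.361 and 0.390 FPKM in controls and 3.37, 2.29, 2.69 and 1.86 with gemcitabine, a 7.42-fold ratio, or 6.63-fold without replicate 1. KRT81 held 0.366, 0.373, 0.419 and 0.337 FPKM in controls and 3.13, 2.36, 2.17 and 1.87 with gemcitabine, a 6.37-fold ratio, or 5.71-fold without replicate 1. KRT86 went from 0.694 ± 0.0910 to 1.60 ± 0.476 FPKM (SD, n = 4), and to 1.38 ± 0.212 (n = 3) without replicate 1. KRT83, another hair keratin of that stretch, had 10 reads in controls and 123 with gemcitabine and was not tested. The coding sequences of KRT81 and KRT86 were 93.6% identical and those of KRT81 and KRT83 93.4%, so reads of these genes may have been exchanged, which was not tested. KRT7, also untested, held 0.384, 0.753, 0.488 and 0.496 FPKM in controls and 1.80, 0.826, 0.987 and 1.07 with gemcitabine. Of the 47 keratins not tested in PANC-1, 18 had no read in any library. The wound-induced genes stayed near 0, with summed levels of 0.0407 to 0.196 FPKM in controls and 0.1696 to 0.289 with gemcitabine.

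**Figure D2:**
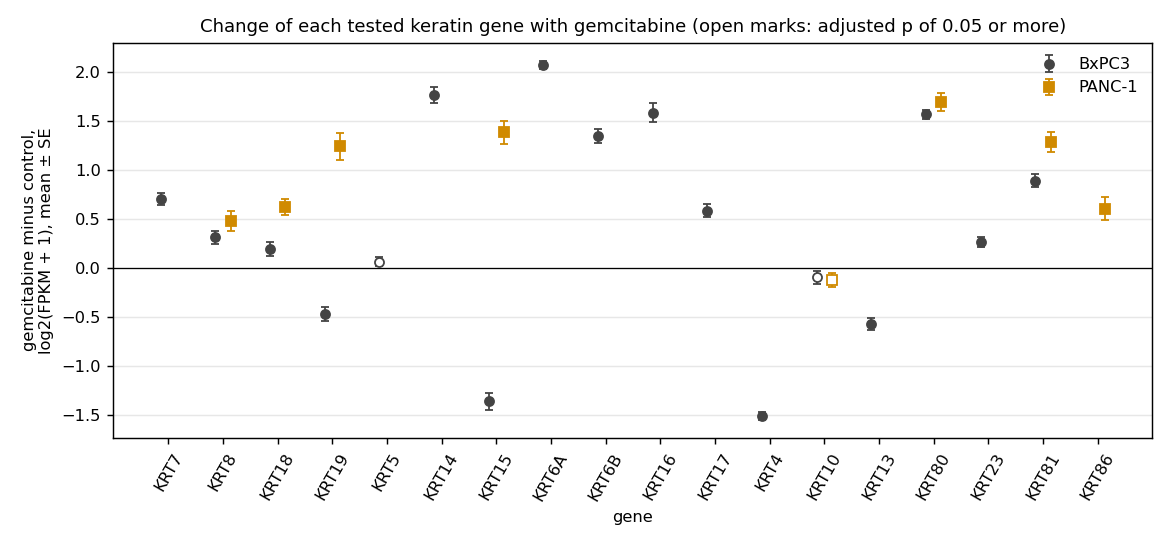
Change of each tested keratin with gemcitabine, as the difference of mean log2(FPKM + 1) with its standard error, for BxPC3 (dark circles) and PANC-1 (orange squares); open marks did not pass. KRT15 and KRT19 lie below 0 in BxPC3 and above 0 in PANC-1, while KRT80 lies near 1.6 in both lines. In PANC-1, KRT15 passed the filter only through gemcitabine libraries.

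The lines differed in their response at KRT19 and KRT18. The difference of the changes, BxPC3 minus PANC-1, was fitted over all 16 libraries. It is described for the 5 keratins at 1 FPKM or more in both groups of both lines. Of the 5, limma called 0 higher and 2 lower, beside 26.6% and 25.2% of 14134 genes tested. The count of higher differences was also 0 at an unadjusted p under 0.05 and in limma-voom on recovered reads. KRT19 fell in BxPC3 and rose in PANC-1, and the difference was -1.72 ± 0.165 (adjusted p = 3.01e-07). KRT18 rose less in BxPC3 than in PANC-1, by -0.43 ± 0.110 (adjusted p = 0.00386). With any 1 library left out, PANC-1 gemcitabine replicate 1 included, the difference ranged from -1.78 to -1.57 at KRT19. At KRT18 it ranged from -0.48 to -0.35. The call for KRT18 within BxPC3 was weak and its groups overlapped there. KRT8 (-0.17 ± 0.127, adjusted p = 0.296), KRT80 (-0.13 ± 0.108, adjusted p = 0.341) and KRT10 (0.03 ± 0.103, adjusted p = 0.843) did not pass, which does not show that their changes were equal. KRT15 and KRT81 entered the PANC-1 fit only through gemcitabine libraries, and KRT81 that of BxPC3 too, so their lines are set side by side with no test. KRT15 was at 0.316 of its control mean in BxPC3 and at 7.42 times it in PANC-1, and KRT81 went from 0.296 to 1.40 FPKM in BxPC3 and from 0.374 to 2.38 in PANC-1.

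The make-up of the keratin sum changed in both lines. In BxPC3, keratin genes took 1.68% ± 0.0585 of reads in controls and 2.03% ± 0.102 with gemcitabine (SD, n = 4), without overlap. Summed FPKM was 5160 ± 303 in controls and 5788 ± 384 with gemcitabine and on this scale the groups overlapped. Within it, the wound-induced share went from 20.8% ± 0.0366 to 33.5% ± 0.283, the simple share from 54.9% ± 0.987 to 46.8% ± 0.299 and the suprabasal share from 9.0005% ± 0.137 to 5.34% ± 0.0928, each without overlap. The share of KRT19 alone went from 35.6% ± 0.815 to 22.9% ± 0.342, and KRT6A from 2.25% ± 0.146 to 8.49% ± 0.248. Per kilobase of main transcript the share of KRT6A went from 1.48% ± 0.0987 to 5.49% ± 0.166. The ratio of KRT17 to KRT19 was 0.517 ± 0.00834 in controls and 1.08 ± 0.00309 with gemcitabine. In PANC-1 the sum went from 364 ± 12.2 to 643 ± 109 FPKM, a ratio of 1.76. Leaving out any 1 library gave ratios of 1.61 to 1.82 there. The simple share of PANC-1 overlapped between groups, at 92.4% ± 0.559 and 91.4% ± 0.452, but shares of single keratins moved without overlap. KRT19 went from 25.6% ± 0.923 to 35.0% ± 1.93 and KRT80 from 2.44% ± 0.170 to 4.88% ± 0.195. KRT8 went from 31.5% ± 0.218 to 25.2% ± 0.198 and KRT18 from 35.2% ± 0.734 to 31.1% ± 1.49.

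Type I and type II chains pair in the filament, yet their RNA sums were not equal. In BxPC3 the type I sum was 2.02 ± 0.0918 times the type II sum in controls and 1.36 ± 0.0378 times with gemcitabine. Per kilobase of main transcript these ratios were 1.70 ± 0.0598 and 1.23 ± 0.0295. The type II sum rose from 1709 ± 47.8 to 2447 ± 128 FPKM without overlap, and the type I sum, where KRT17 and KRT19 moved in opposite directions, overlapped between groups. In PANC-1 the ratio went the other way, from 1.91 ± 0.0238 to 2.23 ± 0.0287, or from 1.01 ± 0.0138 to 1.28 ± 0.0145 per kilobase of main transcript.

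**Figure D3:**
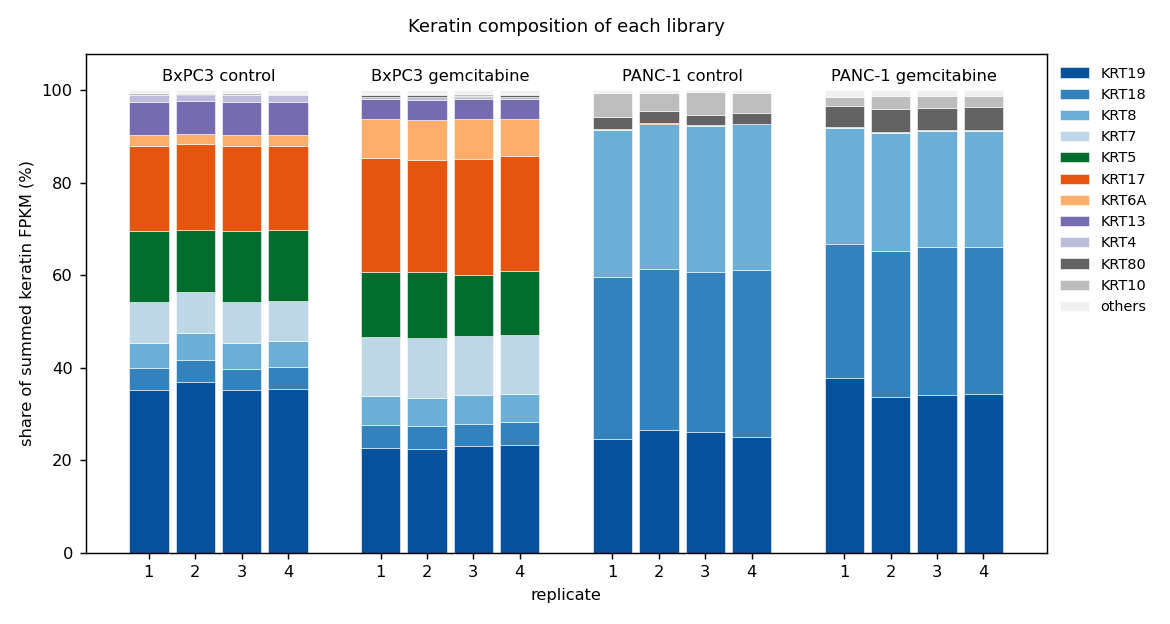
Share of each library's summed keratin FPKM (percent) held by 11 keratins and by all others together, for 4 replicates in each of the 4 groups. In BxPC3 the KRT19 band shrinks and the KRT17, KRT6A and KRT7 bands widen with gemcitabine. In PANC-1 the bands of KRT8, KRT18 and KRT19 fill over 90% in both groups, while the KRT19 band widens and the KRT8 and KRT18 bands shrink.

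Genes that changed alike lay side by side in places. All keratins but 1 lie in a type I cluster on chromosome 17 or a type II cluster on chromosome 12; the exception is the type I KRT18, beside KRT8 at the end of the type II cluster. In BxPC3 the 3 consecutive type I genes KRT13, KRT15 and KRT19 (41500981 to 41528308) fell. Past KRT9, the next 3, KRT14, KRT16 and KRT17 (41582279 to 41624842), were higher. Of these, KRT14 passed the filter only through gemcitabine libraries, so it had to differ. On chromosome 12, KRT6A rose while KRT5, its next neighbour, did not pass, and KRT4 fell between untested genes. In PANC-1, KRT15 and KRT19 were both higher, beside a KRT13 of 0 reads in controls and 8 with gemcitabine. There, KRT15 passed the filter only through gemcitabine libraries. These runs were noticed in the data and are a description with no test.

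**Figure D4:**
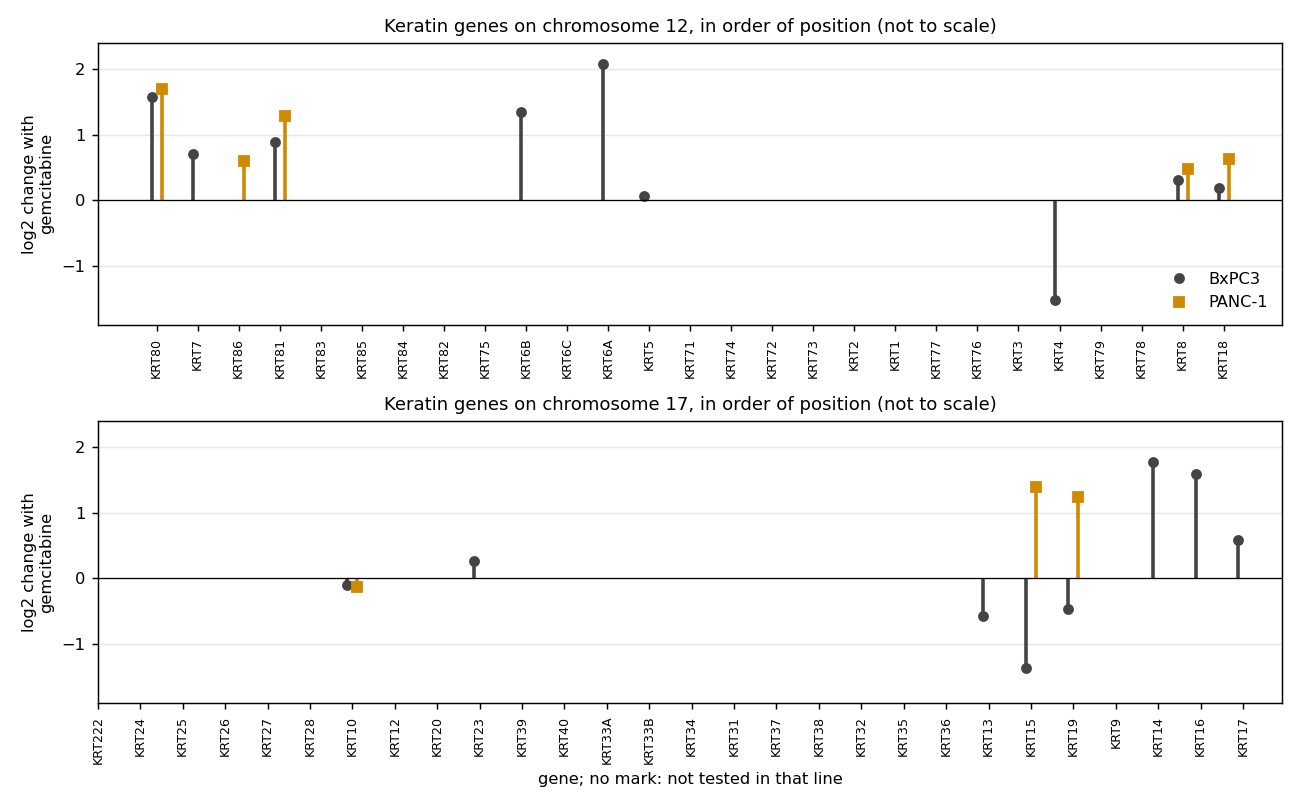
Change with gemcitabine (difference of mean log2(FPKM + 1)) of tested keratins in their order along chromosome 12 (above) and chromosome 17 (below), for BxPC3 (dark circles) and PANC-1 (orange squares); spacing is not to scale. KRT13, KRT15 and KRT19 point down in BxPC3 beside KRT14, KRT16 and KRT17, which point up. KRT14, KRT6B and KRT81 in BxPC3, and KRT15, KRT81 and KRT86 in PANC-1, passed the filter only through gemcitabine libraries.

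Promoters were available for 34 of the 55 keratins in the RefSeq table (GRCh38.p14). The letters TATAAA, the core of a TATA box, occurred on the gene strand within the 250 bases before the start in 18 of the 34 (52.9%), beside 7.17% of 27305 promoters of that length. The AP-1 motif TGANTCA, searched on both strands, occurred in none of the 34 and in 6.60% of all. A match is a description and not a bound site, and no match says only that these letters are not in that window.

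Genes of proteins that link keratin filaments to desmosomes or bind keratins were called higher more often than lower in both lines. The counts in these lists cover members with a mean of 1 FPKM or more in both groups. Members that reached it in 1 group only are given by their values. For PANC-1 the lists are given only with gemcitabine replicate 1 included. Without that library, 32.8% of all genes were called higher and 37.0% lower. Of 20 linkers in BxPC3, 11 were called higher and 4 lower, beside 37.3% and 36.1% of all genes tested, with a median change of 0.19 beside 0.00. SFN, the 14-3-3 sigma protein of epithelia that binds KRT17, rose from 409 ± 32.8 to 831 ± 76.2 FPKM (SD, n = 4), and YWHAZ from 80.7 ± 0.507 to 117 ± 1.75. EVPL, the envelope plakin, fell from 21.0 ± 0.473 to 10.4 ± 0.695, and TRIM29, a protein of basal epithelium, from 79.5 ± 4.77 to 43.3 ± 1.01. In PANC-1, 10 of 15 were called higher and the other 5 did not pass, beside 20.7% higher and 24.0% lower among all genes. The median change of the 15 was 0.47 beside -0.02. DSP, desmoplakin, which anchors keratin at the desmosome, rose from 4.25 ± 0.153 to 13.3 ± 0.627 FPKM, and PPL, periplakin, from 18.5 ± 0.759 to 70.7 ± 10.9. The desmosomal cadherin DSC3 reached 1 FPKM only with gemcitabine, from 0.671 ± 0.0441 to 1.73 ± 0.266.

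Transcription factors known to act on keratin genes went in both directions. In BxPC3, 4 of 16 were called higher and 10 lower, beside 37.3% and 36.1% of all genes (median -0.26). SOX9, a duct factor, rose from 2.61 ± 0.210 to 12.5 ± 0.699 FPKM, and SNAI2 from 14.05 ± 0.753 to 25.1 ± 0.907. SOX2, a factor of squamous and stem cells, fell from 28.4 ± 1.15 to 6.58 ± 0.238, and ELF3 from 30.2 ± 0.854 to 13.3 ± 0.437. GRHL3 reached a mean of 1 FPKM only with gemcitabine, from 0.861 ± 0.240 to 3.06 ± 0.263. In PANC-1, 4 of 9 were called higher and 3 lower, beside 20.7% and 24.0% of all genes (median -0.07). KLF4, a factor of epithelial differentiation, rose from 3.33 ± 0.192 to 11.7 ± 0.846 FPKM, while GLI1 fell from 5.40 ± 0.600 to 1.73 ± 0.190. Means of 1 FPKM or more in 1 group only were seen for TFAP2C (0.594 ± 0.131 in controls, 1.84 ± 0.101 with gemcitabine), GATA6 (0.901 ± 0.0532 and 1.34 ± 0.0851) and GATA3 (1.66 ± 0.124 and 0.990 ± 0.0914).

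Genes of the cornified envelope, the protein shell of dying squamous cells, were tested mainly in BxPC3, where 4 of 9 were called higher and 4 lower, beside 37.3% and 36.1% of all genes (median -0.29). IVL, involucrin, reached a mean of 1 FPKM only with gemcitabine, from 0.863 ± 0.227 to 2.79 ± 0.113. The small proline-rich SPRR2D rose from 6.43 ± 0.763 to 95.6 ± 7.65 FPKM and SPRR1B from 26.8 ± 0.630 to 121 ± 4.32. The protease inhibitor CSTA fell from 57.7 ± 5.89 to 24.4 ± 1.48, and the crosslinking enzyme TGM1 from 4.55 ± 0.149 to 2.68 ± 0.336. In PANC-1, FLG, filaggrin, was at 1.29 ± 0.121 FPKM in controls and 0.711 ± 0.160 with gemcitabine. Of the other intermediate filament genes, 5 of 5 were called higher in BxPC3, beside 37.3% of all genes, with a median of 1.06. They included LMNB2, a nuclear lamin, from 32.7 ± 0.600 to 69.5 ± 2.55 FPKM. SYNM and VIM reached a mean of 1 FPKM only with gemcitabine, SYNM going from 0.528 ± 0.0342 to 1.89 ± 0.0918 and VIM from 0.500 ± 0.0726 to 2.42 ± 0.130. In PANC-1, 5 of 8 were called higher and 1 lower, beside 20.7% and 24.0%; LMNB1 rose from 10.6 ± 0.392 to 21.8 ± 1.16 and IFFO2 from 8.75 ± 0.283 to 14.8 ± 0.564. VIM fell there from 268 ± 13.5 to 212 ± 24.4 FPKM (adjusted p = 0.0124), and INA was at 1.43 ± 0.0834 in controls and 0.635 ± 0.146 with gemcitabine.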

How the data were processed

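For each line the authors deposited a table of FPKM values, genes by libraries, per the file headers. Gene length in bases comes from the same tables and is the other unit used; it equals the union of exons of GENCODE 29 for all 55 keratins. Per the submitters' processing notes, CASAVA and HISAT2 were used (no versions named). The notes name the mouse build mm10, but 58724 of 58735 genes have the start and end of GENCODE 29 on GRCh38, so GRCh38 coordinates are given. The read counter, its strand setting and its treatment of shared reads were not given in the sources used here.

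Reads were recovered from FPKM times length, which came out whole (tolerance 0.02 reads) in 100.0% of values. No pair of libraries of a group agreed within sampling noise (chi-square per degree of freedom at least 2.07). Separate fits per line used limma 3.58.1 in R 4.3.3 (trend, robust) on log2(FPKM + 1). Genes needed an FPKM of 1 or more in 4 or more libraries, p-values were adjusted by Benjamini-Hochberg, and 0.05 was the threshold. An interaction term over 16 libraries gave the difference between lines. Identities and figures used Biopython 1.88 and matplotlib 3.10.9. The procedure was tested on simulated data. The 75-base window was set here, since a read length was not given in the sources used here. All keratins past the filter are named; of each other list and line, up to 2 genes per direction with the smallest p, and EPCAM, CDH1 and VIM. Genes of those lists with a mean of 1 FPKM in 1 group only are also named, chosen after their values were seen. The members and lists were chosen with earlier results of these data known.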

Additional observations from a re-analysis of the deposited data

Results flagged for a closer look

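In 9 of 50 groups of 4 libraries at keratins with a test, 1 library lay far from the other 3 by Dixon's test of the gap over the range at the 95% level; chance gives about 1 in 20. BxPC3 control replicate 2 was high at 4 of them: KRT19 at 2068 FPKM with the next at 1786, KRT17 at 1046 with the next at 925, KRT7 at 496 with the next at 444, and KRT13 at 398 with the next at 362. PANC-1 gemcitabine replicate 1 was high at another 4: KRT19 at 305.5 with the next at 203, KRT8 at 202 with the next at 150, KRT18 at 233 with the next at 191, and KRT80 at 37.1 with the next at 29.5. PANC-1 control replicate 4 was high at KRT86, at 0.830 with the next at 0.656. KRT86 passed the filter on low values in PANC-1 only through gemcitabine libraries, so it had to differ and its call is left aside here. For the other genes, no call was lost without the library that stood apart.

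At KRT19 and KRT18 the change with gemcitabine differed between lines by the interaction test of limma (log2, BxPC3 minus PANC-1): by -1.72 at KRT19, which was lower with gemcitabine in BxPC3 and higher in PANC-1, and by -0.43 at KRT18, which was higher in both lines. KRT15 was lower in all 4 gemcitabine libraries of BxPC3 (a change of -1.36) and higher in all 4 of PANC-1, where its controls lay below 1 FPKM; this difference was not tested.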

How the results depend on the processing

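The alternatives changed the pseudocount (0.1), the filter (none), the scaling (TPM or median ratio), the variance model, the genes tested (protein-coding), the fold (an absolute log2 change of at least 1), the block or the libraries (each left out) and, chosen after seeing the data, limma-voom on recovered reads and main-transcript length. The planned edgeR and DESeq2 fits were not run, since the deposited values are FPKM. With no filter, 17 keratins were called higher in BxPC3, against 11 (3 of them past the filter only through gemcitabine libraries). This setting tests low genes that the filter leaves out. The share of all genes called in it is not given here, so the 17 are not read as a result about keratins. With an absolute log2 change of at least 1, the counts in BxPC3 were 538 higher and 491 lower of all genes and 5 and 2 of keratins. In PANC-1 they were 401 and 133 of all genes, with 4 keratins higher. For the difference they were 446 higher and 647 lower of all genes, with 1 keratin lower. KRT14 and KRT6B in BxPC3 and KRT15 and KRT81 in PANC-1 are among the keratins counted as higher. These genes passed the filter only through gemcitabine libraries, so they had to differ. With 1 library left out, calls higher and lower ranged from 4343 to 4676 and 4200 to 4441 in BxPC3, from 2189 to 4102 and 2452 to 4626 in PANC-1 (the highest without gemcitabine replicate 1), and from 3497 to 4685 and 3351 to 4509 for the difference; keratins called higher in BxPC3 ranged from 10 to 11. The difference of KRT10, near 0, changed sign with limma-voom (-0.0032) and with 5 of the libraries left out (range -0.0138 to 0.0759); the cause was not tested. No pairing by replicate number was seen (correlations of same-numbered libraries -0.33 to 0.18 in BxPC3 and -0.38 to 0.19 in PANC-1). Those of differently numbered libraries ran from -0.28 to 0.45 in BxPC3 and from -0.31 to 0.43 in PANC-1. With 4 libraries per group, this check cannot exclude a pairing. The replicate block gave 4347 and 4206 calls in BxPC3, 2175 and 2464 in PANC-1, and ended 1 keratin call, KRT18 in BxPC3 (adjusted p = 0.0504). Limma-voom called 4553 and 4496 genes in BxPC3 and 2783 and 2858 in PANC-1.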
